A study of Mus musculus with 11 samples.

Results

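The subunits of the oxidative phosphorylation complexes were followed as 84 nuclear genes, out of 24421 gene symbols counted in every library. They are all symbols present in both count tables that begin as Ndufa, Ndufb, Ndufc, Ndufs or Ndufv with a number (37 genes, complex I), that are Sdha to Sdhd (4 genes, complex II), that begin with Uqcr (8 genes, complex III), with Cox4 to Cox8 (18 genes, complex IV) or with Atp5 (17 genes, complex V). The name rule also takes in Atp5s and Atp5sl, which are not structural subunits of the ATP synthase, and leaves out Cyc1 and Ndufab1, which are subunits of complex III and complex I. None of the mitochondrially encoded subunits is in the tables. The mice carried Hic1-CreERT2, an allele of Ctnnb1 (β-catenin) whose exon 3 is flanked by loxP sites, and a tdTomato reporter. Hic1 is active in the mesenchymal progenitors of muscle, so tamoxifen acts there, and loss of exon 3 stabilises β-catenin. The genotype is labelled WTlFlox and is written WT/flox here, and the design text of the series names it only for tamoxifen-treated mice, so the alleles of the mice labelled WT are known only from the tdTomato+ sort of their progenitors. Mesenchymal progenitors sorted as CD45- CD31- Sca1+ tdTomato+ alpha7- from resting hindlimb muscle came from 3 WT/flox mice (74A1, female, and 72B7, male, at day 14 after tamoxifen, and 74A3, male, at day 56) and from 3 WT mice (74A2, female, and 72B8 and 73C3, male, all at day 14). Whole lysates of the tibialis anterior at day 56 came from 3 WT/flox males (71B3, 71B4 and 71B5) and 2 WT males (73A5 and 73A7). In muscle the animal numbers begin with 71B in all WT/flox mice and with 73A in both WT mice, and the labels do not say what these prefixes stand for.

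Complex I (NADH dehydrogenase) and complex II (succinate dehydrogenase) pass electrons to ubiquinone, complex III (the cytochrome bc1 complex) passes them on to cytochrome c, and complex IV (cytochrome c oxidase) passes them to oxygen. Complexes I, III and IV pump protons across the inner mitochondrial membrane and complex V (ATP synthase) uses the gradient to make ATP. Muscle fibres are rich in mitochondria, and several nuclear subunits of complex IV exist as a form found in heart and skeletal muscle and a form found in most other tissues. Subunit transcripts tend to be short and abundant.

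Libraries held 13119843 to 16805238 counts in progenitors and 16892158 to 19449227 in muscle. Counts of the whole Ctnnb1 gene do not show whether exon 3 was lost, since the rest of the transcript stays. Levels are scaled counts per 1e6 counts (CPM). Axin2, a direct β-catenin target, averaged 154 ± 17.2 CPM in WT/flox progenitors and 3.47 ± 0.696 CPM in WT progenitors (SD, n = 3 each), with a log2 fold change of 5.47 (edgeR quasi-likelihood test, adjusted p = 4.37e-06). In muscle Axin2 averaged 17.7 ± 3.61 CPM in WT/flox muscle and 10.2 ± 1.39 CPM in WT muscle (SD, n = 3 and 2, log2 fold change 0.80, adjusted p = 0.216 with edgeR). The 12 mesenchymal progenitor markers took 10.2 to 11.9% of the counts in WT/flox progenitors and 10.6 to 11.4% in WT progenitors, against 0.260 to 0.319% in WT/flox muscle and 0.146 to 0.236% in WT muscle. The 16 myofibre markers took 17.6 to 21.8% of the counts in WT/flox muscle and 21.5 to 23.5% in WT muscle, and none of them was at 0 in any progenitor library, where their share was 0.00275 to 0.00359% in WT/flox and 0.00287 to 0.0180% in WT. In muscle the 12 progenitor markers all had log2 fold changes above 0 (median 0.26, Cxcl14 called), 12 of the 16 myofibre markers lay below 0 (median -0.32, 0 called), and 10 of 11 endothelial markers lay below 0 (median -0.32, 0 called). Below 0 also lay 7 of 9 mural markers (median -0.24), 7 of 8 glial markers (median -0.16) and 4 of 7 adipocyte markers (median -0.17). The immune markers had 1 of 9 below 0 (median 0.22), and the muscle stem cell markers 2 of 7 (median 0.15, Myod1 called higher). Of all genes tested in muscle 49.5% lay below 0 and 0.727% were called. The part of these cell types in the results on muscle was not tested. Levels in whole muscle cannot tell fewer cells of a type from less RNA per cell.

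Within each material the subunit transcripts moved together from library to library. In progenitors 1 library of each genotype stood apart as high, while in muscle the lowest library was WT/flox and the highest was WT. In progenitors 73C3 (WT) had the highest level for 53 of the 78 members that passed the expression filter and 72B7 (WT/flox) for 21. Those libraries were the 2 highest for 70 of the 78 members, a pattern seen in 13.8% of all genes tested. The exceptions were Atp5s, Atp5sl, Cox7a1, Cox8b, Ndufa4l2, Ndufc2, Ndufs1 and Sdha, which were picked out by this pattern. In muscle 71B5 (WT/flox) had the lowest level for 79 of the 80 members that passed the filter, against 24.7% of all genes, with Atp5s as the exception. The highest muscle library was 73A7 (WT) for 61 of the 80 members, against 29.1% of all genes. The median deviation of the members from their mean over the libraries of the material, in log2 units, was 0.26 in 72B7, -0.18 in 74A1 and -0.24 in 74A3 among WT/flox progenitors, against 0.39 in 73C3, -0.080 in 72B8 and -0.17 in 74A2 among WT progenitors. In muscle it was 0.15 in 71B3, 0.0019 in 71B4 and -0.35 in 71B5 (WT/flox), against -0.094 in 73A5 and 0.30 in 73A7 (WT).

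Short transcripts of other genes moved with the same libraries. The 261 other genes with a principal transcript under 700 bases deviated by a median of 0.25 in 72B7 and 0.33 in 73C3 (log2), while the 5752 other genes with a transcript of at least 3000 bases deviated by -0.079 in 72B7 and -0.12 in 73C3. In muscle the 286 other short genes deviated by -0.23 in 71B5 and 0.26 in 73A7, and the 5736 long genes by 0.12 in 71B5 and -0.10 in 73A7. Members under 700 bases deviated by a median of 0.42 in 73C3, 0.32 in 72B7, -0.35 in 71B5 and 0.32 in 73A7. The 14 members of at least 1500 and under 3000 bases kept these signs, at 0.315, 0.14, -0.32 and 0.15. Other genes of that length deviated by 0.061, 0.038, -0.045 and 0.052 in the same libraries. Spread was taken as the highest library over the lowest, for members with a mean of at least 10 CPM. In progenitors its median was 1.80-fold for the 32 under 700 bases and 1.55-fold for the 14 of at least 1500 bases. Across the 72 members with such a mean the spread in progenitors was smaller for longer transcripts (Pearson r = -0.556, Spearman rho = -0.563, on log scales, as a description across genes that share libraries), and across 79 members in muscle r was -0.349 and rho -0.292. Cytosolic ribosomal protein genes, also short, took 2.80% of the counts in 72B7 against 1.76 and 1.84% in the other WT/flox progenitor libraries, and 2.92% in 73C3 against 1.54 and 1.66% in the other WT ones. In muscle these genes kept the order of the members within each genotype. Between genotypes they did not, since their lowest library was 73A5 (WT) and their highest 71B3 (WT/flox). They took 1.44, 1.36 and 1.18% in the WT/flox muscles 71B3, 71B4 and 71B5, against 0.98 and 1.34% in the WT muscles 73A5 and 73A7. The myofibre markers were lowest in 71B5 among the muscle libraries (17.6%), and 71B5 also had the highest TMM scaling factor (1.138). The part of transcript length and of these libraries in the results below was not tested.

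**Figure D1:**
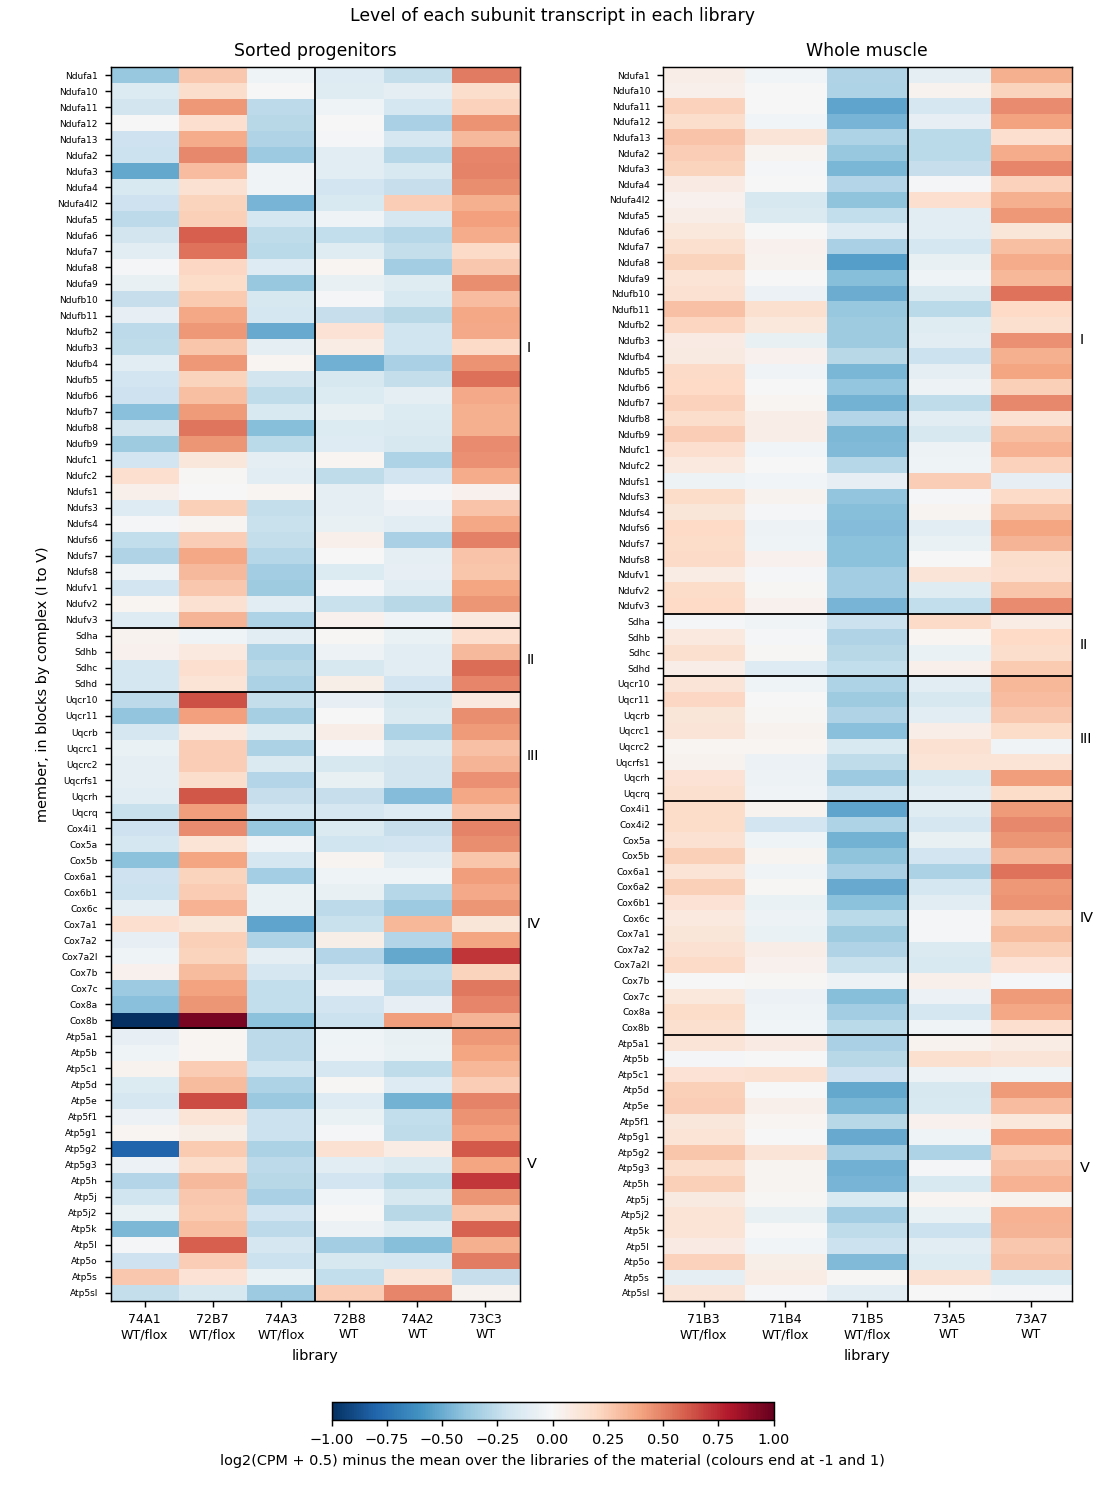
Each row is a member that passed the filter, in blocks by complex (1 member is not drawn), and each column a library, WT/flox left of WT; colour is log2(CPM + 0.5) minus the mean over the libraries of the material. Columns 72B7 and 73C3 are red and column 71B5 is blue almost from top to bottom.

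Because paralogues and pseudogenes copy many of these genes, 49 of the 84 members share at least some words of 43 bases, the read length, with transcripts of other genes, and 6 share at least 50% of theirs. Those are Atp5g2 (all of its words), Atp5l, Atp5h, Atp5g1, Atp5o and Cox7c, and their counts are uncertain because how reads that fit several genes were counted is not given in the sources used here.

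In progenitors no member of any complex was called between genotypes. Of the 78 tested, 0 had an adjusted p under 0.05 with edgeR, where 3.66% of the 12392 genes tested did (2.34% higher and 1.32% lower in WT/flox), and 1 had an unadjusted p under 0.05, where 12.5% of all genes did. DESeq2 and limma voom also called 0 members. The members' log2 fold changes had a median of -0.092 against 0.0012 over all genes, and 59 of 78 lay below 0, as did 49.8% of all genes. That direction rested on single libraries: without 73C3 (WT) the median was 0.10 with 14 of 78 below 0, without 72B7 (WT/flox) it was -0.26 with 74 below 0, and with the day 14 libraries alone, which leaves out 74A3, it was 0.0027 with 36 below 0. It was 0.00017 without 74A1, -0.16 without 72B8 and -0.19 without 74A2.

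The summed level of all 84 members was 4154, 5324 and 3844 CPM in the WT/flox progenitors 74A1, 72B7 and 74A3, against 4268, 4033 and 5925 CPM in the WT progenitors 72B8, 74A2 and 73C3. The genotypes overlapped, and the highest library exceeded the lowest by 1.54-fold, while the ratio of the group means was 0.936. By complex the mean sums were 1289.9 ± 266 CPM in WT/flox and 1339 ± 271 CPM in WT for complex I, and 379 ± 31.4 CPM in WT/flox and 417 ± 65.6 CPM in WT for complex II (SD, n = 3 each). Complex III summed to 428 ± 97.3 CPM in WT/flox and 432 ± 93.0 CPM in WT, complex IV to 744 ± 179 CPM in WT/flox and 778 ± 221 CPM in WT, and complex V to 1599 ± 221 CPM in WT/flox and 1777 ± 381 CPM in WT. No difference between the means of a complex was larger than the SD among the WT libraries.

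**Figure D2:**
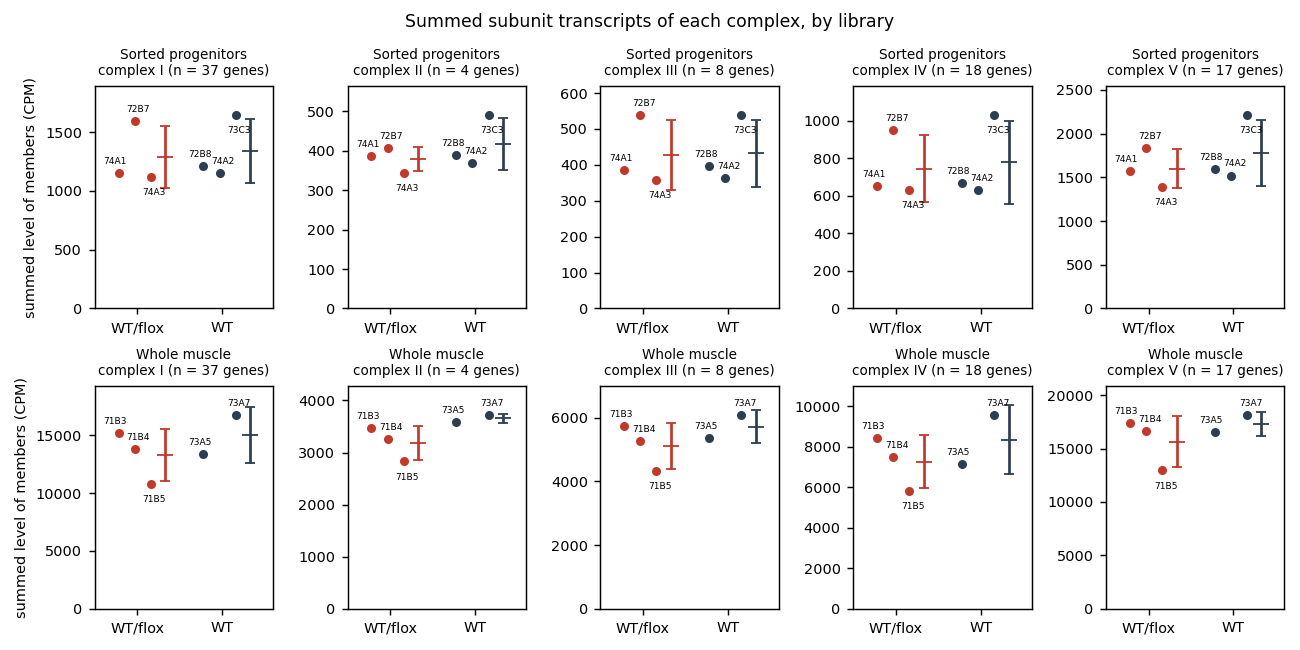
Points are libraries, named beside each point, and show the sum of CPM over the members of a complex, with the mean and SD of each genotype as a bar to the right; the upper row is sorted progenitors and the lower row whole muscle, each with WT/flox left of WT. The genotypes overlap in every panel except complex II in muscle, where the WT/flox libraries lie at 2828 to 3475 CPM and the WT libraries at 3588 and 3719 CPM. Of all genes tested in muscle 25.3% do not overlap.

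Among complex I members in progenitors, Ndufa4l2, a paralogue of Ndufa4 that is induced in hypoxia, had the smallest p. It stood at 13.2, 17.9 and 10.9 CPM in the WT/flox progenitors 74A1, 72B7 and 74A3, against 13.7, 18.3 and 19.7 CPM in the WT progenitors 72B8, 74A2 and 73C3. The genotypes overlapped, and the log2 fold change was -0.30 (SE 0.22, adjusted p = 0.782 with edgeR). Ndufa9, an accessory subunit at the junction of the matrix and membrane arms, had 45.8, 54.9 and 36.9 CPM in WT/flox, against 45.8, 44.1 and 66.5 CPM in WT, a log2 fold change of -0.19 (SE 0.21). Its highest library was again 73C3. The most abundant members per kilobase of transcript were Ndufa4, first described in complex I and later placed with complex IV, at 98.3 ± 10.6 CPM per kb in WT/flox and 102 ± 29.7 CPM per kb in WT, and the accessory subunit Ndufb9 at 73.6 ± 24.0 CPM per kb in WT/flox and 79.5 ± 21.1 CPM per kb in WT. Ndufs1, which carries iron-sulphur clusters of the electron path and was picked out as the steadiest member, stayed within 64.7 to 67.1 CPM in WT/flox and 60.6 to 66.7 CPM in WT. The 36 tested members of complex I had log2 fold changes of -0.30 to 0.21 with a median of -0.073. Of them 26 lay below 0, where 49.8% of all genes did.

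In complex II the catalytic flavoprotein Sdha had 219.6, 208 and 198 CPM in the WT/flox progenitors 74A1, 72B7 and 74A3, against 215, 204 and 240.2 CPM in the WT progenitors 72B8, 74A2 and 73C3. The values of the genotypes interleaved, with a log2 fold change of -0.077 (SE 0.16). Sdhd, a membrane anchor, had 52.9, 65.8 and 48.1 CPM in WT/flox, against 62.6, 52.4 and 84.4 CPM in WT (log2 fold change -0.26, SE 0.21, adjusted p = 0.815 with edgeR). Sdhc, the other anchor, had a log2 fold change of -0.22 (SE 0.22), and the iron-sulphur subunit Sdhb one of -0.12 (SE 0.18). All 4 lay below 0, where 49.8% of all genes did, with a median of -0.17, and 73C3 (WT) was the highest library for all 4.

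The complex III members ran from -0.20 to 0.19 on the log2 scale with a median of -0.046. Uqcrh, the hinge protein that helps cytochrome c dock, was the most abundant per kilobase, at 150.4 ± 51.7 CPM per kb in WT/flox and 132 ± 41.4 CPM per kb in WT, and had 68.6, 115 and 63.4 CPM in the WT/flox progenitors 74A1, 72B7 and 74A3, against 63.3, 55.1 and 97.7 CPM in the WT progenitors 72B8, 74A2 and 73C3. The spread within each genotype exceeded the difference between them (log2 fold change 0.19, SE 0.28). Uqcr11 and Uqcrb, small accessory subunits, had log2 fold changes of -0.20 (SE 0.25) and -0.15 (SE 0.20), and Uqcr10, another, had 0.15 (SE 0.25).

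Of the 18 complex IV members 13 passed the filter in progenitors. The muscle and tissue-restricted forms Cox4i2, Cox6a2 and Cox6b2 stayed below 1 CPM in every library, and Cox7b2 and Cox8c had 0 counts in all of them, which allows up to 3 counts a library, for counting error only. Cox4i1, the ubiquitous form of subunit 4, was the most abundant member of all per kilobase, at 299 ± 98.8 CPM per kb in WT/flox and 313 ± 91.7 CPM per kb in WT. It had 191, 307 and 169.8 CPM in the WT/flox progenitors 74A1, 72B7 and 74A3, against 199.8, 188 and 312 CPM in the WT progenitors 72B8, 74A2 and 73C3, so that the highest library of each genotype was the one that stood apart (log2 fold change -0.068, SE 0.27). Cox6a1, the form of subunit 6a outside muscle, had a log2 fold change of -0.21 (SE 0.20, adjusted p = 0.871 with edgeR), and Cox7b one of 0.13 (SE 0.19). Cox7a2l, a factor of respiratory supercomplexes, had the widest spread of the members with a mean of at least 10 CPM, with 81.0, 97.6 and 78.5 CPM in WT/flox, against 68.0, 58.6 and 138 CPM in WT. Its log2 fold change was -0.041 (SE 0.30) and turned to 0.44 without 73C3.

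Complex V held the member with the smallest p of all. Atp5sl, a relative of the ATP synthase coupling factor S that is also named Dmac2 and is known for complex I assembly, had 5.58, 5.89 and 5.08 CPM in the WT/flox progenitors 74A1, 72B7 and 74A3, against 7.98, 9.53 and 6.82 CPM in the WT progenitors 72B8, 74A2 and 73C3. Every WT/flox library lay below every WT library, which held for no other member, for 8.17% of all genes in that direction and for 16.9% in either. The log2 fold change was -0.55 (SE 0.21), the unadjusted p 0.0276 and the adjusted p 0.285 with edgeR, so it was not called. The gene lies on chromosome 7 (GRCm38, 25619414 to 25625551, plus strand), and none of its transcript words is shared with another gene. Atp5g2, a copy of subunit c of the proton-driven rotor whose words are all shared with pseudogenes, had 3.08, 6.93 and 4.47 CPM in WT/flox, against 6.40, 6.02 and 9.0 CPM in WT (log2 fold change -0.57, SE 0.31, adjusted p = 0.584 with edgeR). Atp5b and Atp5a1 were steadier. Atp5b had 504, 526 and 433 CPM in WT/flox, against 507, 496 and 681 CPM in WT (log2 fold change -0.20, SE 0.19), and Atp5a1 had a log2 fold change of -0.22 (SE 0.20). The 17 members had a median of -0.12.

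In whole muscle no member was called either. Of the 80 tested, 0 had an adjusted p under 0.05 with edgeR, where 0.727% of the 12654 genes tested did (0.514% higher and 0.213% lower in WT/flox), and 1 had an unadjusted p under 0.05, where 9.69% of all genes did. DESeq2 and limma voom called 0 members. The median log2 fold change was -0.18 against 0.0030 over all genes, and 74 of 80 members lay below 0, as did 49.5% of all genes. The medians were -0.21 for complex I, -0.20 for complex II, -0.16 for complex III, -0.21 for complex IV and -0.12 for complex V. Without 73A7 (WT) the members' median was 0.015 with 33 of 80 below 0, without 71B5 (WT/flox) it was -0.045 with 53 below 0, without 73A5 (WT) it was -0.34, and without 71B3 and 71B4 in turn it was -0.28 and -0.19. With no scaling factors the members' median was -0.066, while the median of all genes moved to 0.13. Members under 700 bases had a median of -0.16 and other genes of that length -0.054, and the 14 members of at least 1500 and under 3000 bases had a median of -0.20 where other genes of that length had -0.012.

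The summed level of the 84 members was 50311, 46502 and 36784 CPM in the WT/flox muscles 71B3, 71B4 and 71B5, against 45984 and 54279 CPM in the WT muscles 73A5 and 73A7. The WT values lay on both sides of 71B3, and the ratio of the group means was 0.888, while the highest library exceeded the lowest by 1.48-fold. Complex I summed to 13299 ± 2250.2 CPM in WT/flox and 15054 ± 2408 CPM in WT, complex III to 5114 ± 715 CPM in WT/flox and 5722 ± 516 CPM in WT, complex IV to 7264 ± 1317 CPM in WT/flox and 8361 ± 1717 CPM in WT, and complex V to 15666 ± 2383 CPM in WT/flox and 17341 ± 1133 CPM in WT (SD, n = 3 and 2). Only the sums of complex II did not overlap, with 3189 ± 330.1 CPM in WT/flox and 3654 ± 93.1 CPM in WT. Of all genes tested in muscle 25.3% did not overlap in either direction. Within complex II only Sdha, the largest part of the sum at 1495 ± 110 CPM in WT/flox and 1745 ± 102 CPM in WT, did not overlap. Sdhb, Sdhc and Sdhd each overlapped. As a share of unscaled counts the members took 4.91, 4.62 and 4.18% in the WT/flox muscles 71B3, 71B4 and 71B5, against 4.50 and 5.02% in the WT muscles 73A5 and 73A7.

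Single members without overlap between genotypes in muscle numbered 6 of 80, all lower in WT/flox, where 12.9% of all genes did not overlap in that direction and 25.3% in either. Among them were Ndufa4l2 and Ndufv1 of complex I, Sdha of complex II, Uqcrfs1 of complex III and Atp5b of complex V, and Ndufv1 was named for this count after its values were seen. Ndufa4l2 had 11.3, 9.71 and 8.14 CPM in the WT/flox muscles 71B3, 71B4 and 71B5, against 12.3 and 14.2 CPM in the WT muscles 73A5 and 73A7. Its log2 fold change was -0.45 (SE 0.19, unadjusted p = 0.0432, adjusted p = 0.488 with edgeR), and it was the member with the smallest p. Ndufv1, which holds the flavin that accepts electrons from NADH, had 694, 651 and 518 CPM in WT/flox, against 722 and 743 CPM in WT (log2 fold change -0.24, SE 0.17).

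Sdha had 1570.4, 1546 and 1368 CPM in the WT/flox muscles 71B3, 71B4 and 71B5, against 1818 and 1673 CPM in the WT muscles 73A5 and 73A7. All WT/flox values lay below both WT values, with a log2 fold change of -0.22 (SE 0.15, adjusted p = 0.740 with edgeR). Uqcrfs1, the Rieske iron-sulphur protein of complex III, had 829.6, 780.0 and 678 CPM in WT/flox, against 893 and 892 CPM in WT (log2 fold change -0.23, SE 0.15). Atp5b, the catalytic β subunit, was the most abundant member per kilobase, at 2385 ± 253 CPM per kb in WT/flox and 2798 ± 44.8 CPM per kb in WT, and had 4821, 4878 and 4013 CPM in WT/flox, against 5422 and 5301 CPM in WT (log2 fold change -0.23, SE 0.17). In each of these genes 71B5 was the lowest library, as it was for nearly all members.

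The other leading members overlapped between genotypes in muscle. Sdhd had a log2 fold change of -0.26 (SE 0.16), Uqcrh of -0.24 (SE 0.22) and Atp5g1 of -0.30 (SE 0.23). In complex IV, Cox7c and Cox5a had log2 fold changes of -0.31 (SE 0.21) and -0.30 (SE 0.23). Cox5a, which with Cox4i1 is among the first subunits to join the complex, had 1120.5, 982 and 726 CPM in WT/flox, against 958 and 1369.8 CPM in WT, so that the WT value of 73A5 lay below 71B3 and 71B4. Cox7b had 613, 619.7 and 592 CPM in WT/flox, against 638 and 609.5 CPM in WT, and was the steadiest member, with a log2 fold change of -0.036 (SE 0.14). Per kilobase the most abundant members after Atp5b were Ndufa4, at 1959 ± 262 CPM per kb in WT/flox and 2208 ± 272 CPM per kb in WT, and Cox4i1, at 1764 ± 426 CPM per kb in WT/flox and 2102 ± 558 CPM per kb in WT.

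**Figure D3:**
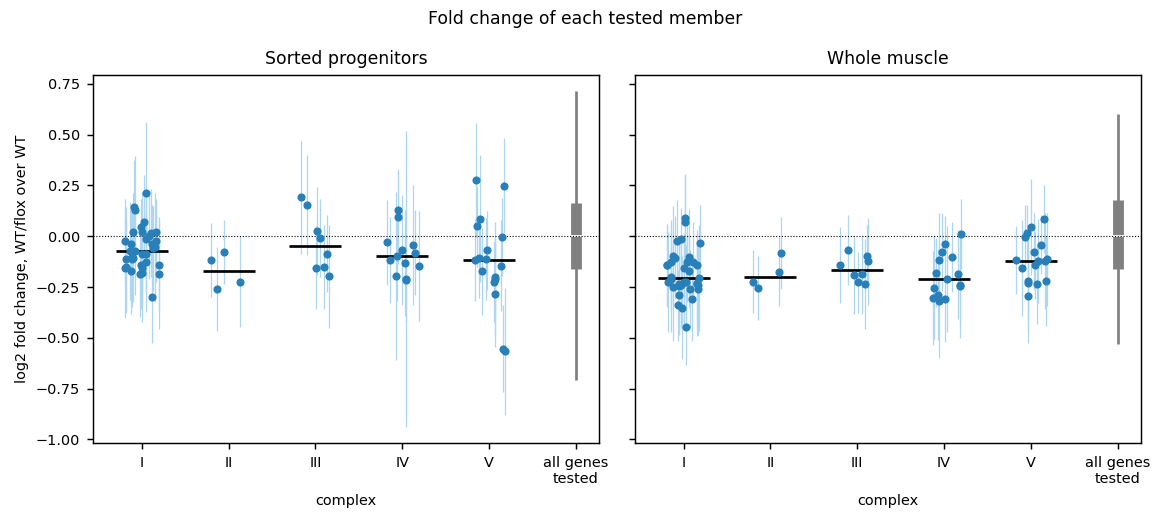
Points are the log2 fold changes (WT/flox over WT) of the tested members with their standard errors, by complex, with the median as a black line; the grey bar holds the middle 50% and the grey line the middle 90% of all genes tested. All complex medians lie below 0 in both panels, from -0.17 to -0.046 in progenitors and from -0.21 to -0.12 in muscle, inside the spread of the middle 90% of all genes, and no member has an adjusted p under 0.05.

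The genotype effect did not differ detectably between materials for any member. In a fit of all 11 libraries 0 of 81 members had an adjusted interaction p under 0.05 with edgeR, where 0.769% of 13781 genes did, and 1 had an unadjusted p under 0.05, where 8.71% of all genes did. That member was Atp5sl, whose effect in muscle minus that in progenitors was 0.62 on the log2 scale (SE 0.23, adjusted p = 0.385). Material and day change together in that comparison for all progenitors but 74A3.

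Counts of called genes among those that work with the complexes are given beside a share over all genes of 3.66% in progenitors and 0.727% in muscle, at which lists of this size would hold few or no calls. In progenitors 0 of 48 tested assembly factors of complexes I to IV, 0 of 4 of complex V, 0 of 17 genes of the tricarboxylic acid cycle, 0 of 16 of fatty acid oxidation, 0 of 17 of glycolysis, 0 of 17 regulators of mitochondrial biogenesis and 0 of 77 mitochondrial ribosomal proteins had an adjusted p under 0.05 with edgeR. In muscle the same lists had 0 of 48, 0 of 4, 0 of 17, 0 of 18, 0 of 16, 0 of 20 and 0 of 77. Their median log2 fold changes in muscle were -0.30 for fatty acid oxidation (17 of 18 genes below 0, against 49.5% of all genes), -0.15 for glycolysis, -0.14 for mitochondrial ribosomal proteins (68 of 77 below 0), -0.13 for the tricarboxylic acid cycle and 0.010 for the biogenesis regulators. Ndufab1, the acyl carrier protein that is part of complex I, averaged 54.3 ± 3.68 CPM in WT/flox muscle and 74.1 ± 3.0 CPM in WT muscle (SD, n = 3 and 2), with a log2 fold change of -0.45 (SE 0.13, adjusted p = 0.273 with edgeR). Cyc1, the cytochrome c1 of complex III, had a log2 fold change of -0.14 (SE 0.17) in muscle and -0.074 (SE 0.21) in progenitors.

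Muscle and progenitors differed in nearly all subunits. In WT mice 77 of the 81 members tested were higher in muscle than in progenitors with edgeR (adjusted p under 0.05), where 37.5% of the 13781 genes were, and the median difference was 3.91 on the log2 scale, or 15-fold, against -0.086 over all genes. The medians were 3.83 for complex I, 3.63 for complex II, 4.40 for complex III, 4.27 for complex IV and 3.82 for complex V. The WT muscles were taken at day 56 and the WT progenitors at day 14, by different RNA kits, so that material, day and kit cannot be told apart here. After the muscle forms of complex IV subunits the differences were largest for Cox5a (5.89, SE 0.31), Atp5g1 (5.55, SE 0.29) and Uqcrq (5.28, SE 0.28), the ubiquinone-binding small subunit of complex III. Uqcrq averaged 880.1 ± 118 CPM in WT muscle and 22.6 ± 5.39 CPM in WT progenitors (SD, n = 2 and 3, scaled over all 11 libraries). Among the members called higher in muscle, the differences were smallest for Atp5s (2.33, SE 0.20) and Cox7a2l (0.84, SE 0.31, adjusted p = 0.0248), and the Cox7a2l call was lost without any of 73A7, 72B8 and 74A2 and when the WT groups were fitted alone.

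A single member was lower in muscle, where 38.6% of all genes were lower. Cox6a1 averaged 40.0 ± 16.3 CPM in WT muscle and 72.5 ± 18.0 CPM in WT progenitors (SD, n = 2 and 3), a log2 fold change of -0.86 (SE 0.28, adjusted p = 0.0118 with edgeR). The call rested on 73A5, the lower of the WT muscles: without it the log2 fold change was -0.50 with an adjusted p of 0.160. Cox8a, Ndufa4l2 and Cox6b2 were not called. Cox8a averaged 57.9 ± 15.5 CPM in WT muscle and 72.5 ± 23.2 CPM in WT progenitors (log2 fold change -0.32, SE 0.30), and Ndufa4l2 16.5 ± 1.46 CPM in WT muscle and 14.6 ± 3.19 CPM in WT progenitors (log2 fold change 0.18, SE 0.25).

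**Figure D4:**
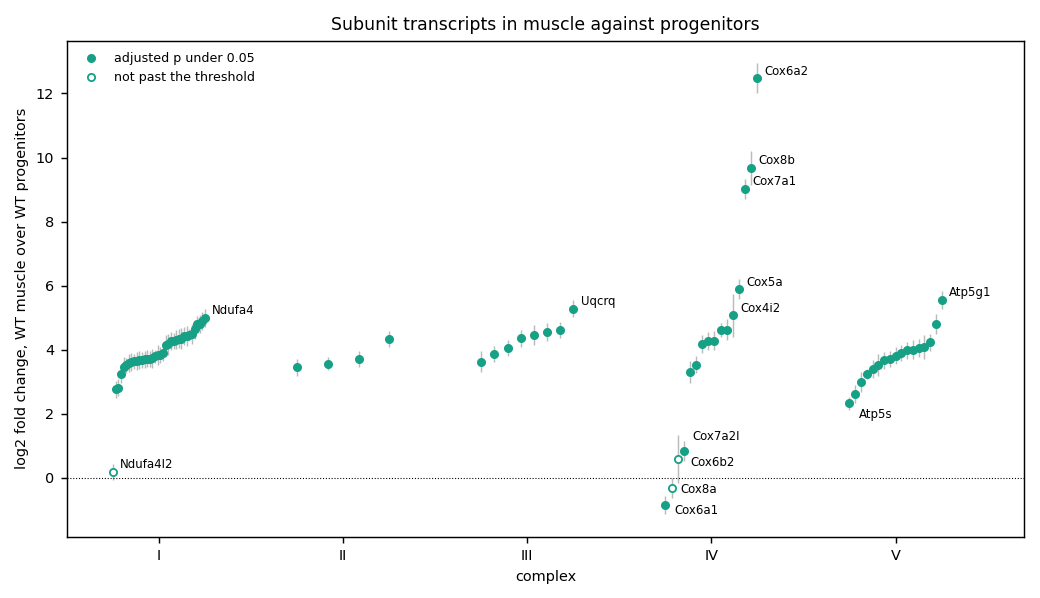
Points are the log2 fold changes of the 81 tested members in WT muscle over WT progenitors with standard errors, sorted within each complex; filled points have an adjusted p under 0.05 with edgeR. Most members lie near the median of 3.91, with Cox6a2, Cox8b and Cox7a1 far above. Cox6a1 and Cox8a lie below 0, and Ndufa4l2, Cox6b2 and Cox7a2l lie above it at 0.18, 0.59 and 0.84.

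The largest differences were in the muscle forms of complex IV subunits. Cox6a2 had 21103, 17724 and 13891 counts in the WT/flox muscles 71B3, 71B4 and 71B5 and 13875 and 19778 in the WT muscles 73A5 and 73A7. In progenitors it had 1, 3 and 1 counts in the WT/flox progenitors 74A1, 72B7 and 74A3 and 1, 3 and 8 in the WT progenitors 72B8, 74A2 and 73C3. Muscle and progenitors thus differed in every library. Cox8b had 10064 to 12299 counts in WT/flox muscle and 9481 and 10155 in WT muscle, against 2 to 29 in WT/flox progenitors and 9 to 21 in WT progenitors. Cox7a1 had 7466 to 9466 counts in WT/flox muscle and 7551 and 8917 in WT muscle, against 10 to 21 in WT/flox progenitors and 14 to 27 in WT progenitors.

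Per 1000 counts of the 16 myofibre markers, Cox6a2 had 3.77 to 4.98 counts in muscle and 2.07 to 7.52 in progenitors, where the values rest on 1 to 8 counts. Cox7a1 had 2.0 to 2.31 in muscle and 8.27 to 55.0 in progenitors, and Cox8b had 2.56 to 3.11 in muscle and 5.24 to 72.7 in progenitors. The progenitor ratios of Cox7a1, on 10 to 27 counts a library, lay above the muscle ratios in every library. Those of Cox8b rest on 2 to 29 counts, and the lowest, in 74A1, rests on 2 counts against 382 marker counts, too few to set it apart from the muscle ratios. Those of Cox6a2 overlapped the muscle ratios. Whether the sorted cells or other cells in the sort carried these counts was not tested.

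Per kilobase of transcript, Cox6a2 as a share of Cox6a2 and Cox6a1 together was 96.5 ± 0.344% in WT/flox muscle and 96.5 ± 0.431% in WT muscle, against 0.132 ± 0.0611% in WT/flox progenitors and 0.226 ± 0.146% in WT progenitors (SD, n = 3 and 2 in muscle, 3 each in progenitors). Cox8b as a share of Cox8b and Cox8a was 95.5 ± 0.162% in WT/flox muscle and 95.3 ± 0.820% in WT muscle, against 1.5 ± 1.31% in WT/flox progenitors and 1.92 ± 0.619% in WT progenitors. The leading form of each pair thus differed between materials in every library, and neither Cox6a1 nor Cox8a was called higher in muscle. Subunit 7a kept a mixture: Cox7a1 as a share of Cox7a1 and Cox7a2 was 70.5 ± 0.763% in WT/flox muscle and 73.0 ± 0.474% in WT muscle, against 5.26 ± 1.35% in WT/flox progenitors and 5.87 ± 2.49% in WT progenitors.

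Genotype differences of these shares were small. The Cox7a1 share was 71.2, 69.7 and 70.7% in the WT/flox muscles 71B3, 71B4 and 71B5, against 73.3 and 72.6% in the WT muscles 73A5 and 73A7, without overlap. The difference was -2.44 percentage points, and its two-sided exact permutation p of 0.2 is the smallest that 3 against 2 libraries allow (0.64 after Benjamini-Hochberg adjustment over 16 shares). The Ndufa4l2 share of Ndufa4l2 and Ndufa4 was 0.554, 0.506 and 0.520% in WT/flox muscle, against 0.651 and 0.628% in WT muscle, also without overlap and with the same exact p of 0.2. In progenitors that share was 13.2 ± 2.08% in WT/flox and 15.6 ± 2.92% in WT, with overlap. The Atp5g2 share of Atp5g2 and Atp5g3 did not overlap either. It was 4.95 to 9.07% in WT/flox progenitors and 9.76 to 10.1% in WT progenitors (exact permutation p = 0.1, the smallest that 3 against 3 allow). In muscle it was 5.94 to 6.06% in WT/flox and 4.55 and 5.41% in WT (p = 0.2, exact). The signs were opposite, but the lowest progenitor share, in 74A1, rests on 42 counts of Atp5g2, whose words are all shared with other genes. After Benjamini-Hochberg adjustment over the 16 shares, the exact permutation p of each share without overlap was 0.64.

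**Figure D5:**
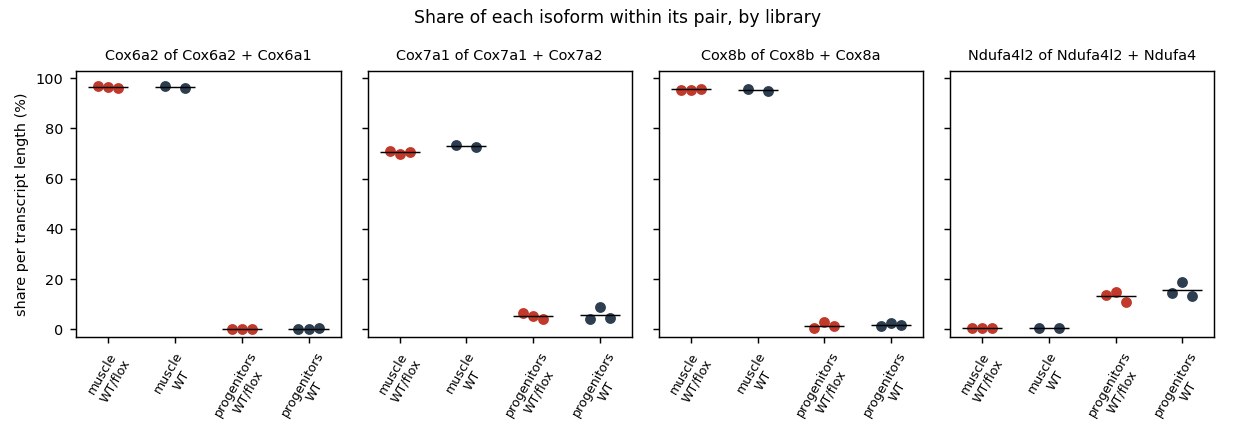
Each point is a library and shows the share of the first-named form within its pair, per transcript length, in percent, with group means as lines; muscle stands left of progenitors and WT/flox left of WT. Cox6a2 and Cox8b lie above 94% in muscle and under 4% in progenitors, Cox7a1 near 70% in muscle, and Ndufa4l2 under 1% in muscle and above 10% in progenitors.

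Promoter windows of 300 bases (250 before the annotated start and 50 after it, RefSeq on GRCm38.p6) were at hand for 69 of the 84 members. Cox8b and Cox8a are shown because they differ most within a pair with windows, and Cox6a1 because it alone was lower in muscle. Capitals mark matches to the motifs searched on both strands.
Cox8b, chr7:140900397-140900696, minus strand: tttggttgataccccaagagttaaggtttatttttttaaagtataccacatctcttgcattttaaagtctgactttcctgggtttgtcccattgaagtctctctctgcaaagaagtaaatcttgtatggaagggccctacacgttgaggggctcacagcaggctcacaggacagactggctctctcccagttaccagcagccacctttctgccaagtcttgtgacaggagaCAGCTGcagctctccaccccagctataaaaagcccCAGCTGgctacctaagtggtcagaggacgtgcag
Cox8a, chr19:7217567-7217866, minus strand: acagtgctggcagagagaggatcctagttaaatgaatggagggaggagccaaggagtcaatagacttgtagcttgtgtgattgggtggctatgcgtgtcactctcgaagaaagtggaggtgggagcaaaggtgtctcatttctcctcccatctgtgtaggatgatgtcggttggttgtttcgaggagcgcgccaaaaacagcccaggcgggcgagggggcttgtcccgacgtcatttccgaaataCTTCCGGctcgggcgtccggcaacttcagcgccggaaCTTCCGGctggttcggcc
Cox6a1, chr5:115348909-115349208, minus strand: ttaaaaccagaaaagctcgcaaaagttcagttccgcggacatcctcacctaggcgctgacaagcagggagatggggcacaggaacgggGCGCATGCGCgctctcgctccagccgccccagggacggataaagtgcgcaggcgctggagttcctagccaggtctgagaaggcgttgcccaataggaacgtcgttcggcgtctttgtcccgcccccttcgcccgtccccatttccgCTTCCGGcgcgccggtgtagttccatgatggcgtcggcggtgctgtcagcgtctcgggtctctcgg
The capitals in Cox8b are E-boxes (CAGCTG, the core bound by MyoD family factors), with leftmost bases at -19 and 16, where 0 is the first base after the 250 upstream. In Cox8a they are the ETS core of GABPA, also called NRF2 (CCGGAAG, here on the other strand), at -5 and 32, and in Cox6a1 a GABPA match at -16 and an NRF1 match at -162. Cox7a1 and Cox7a2 held none of the motifs, which says only that these letters are not in their windows.

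Over the members the GABPA letters were found in 15 windows (21.7%), against 9.12% of the windows of 27025 genes, and the NRF1 letters in 5 (7.25%), against 0.977%. The YY1 letters (AAGATGG) were found in 11 windows (15.9%), against 6.48%, and the ESRRA letters (AAGGTCA) in 8 (11.6%), against 4.66%. The E-box was found in 6 (8.70%), against 16.1%, and the MEF2 consensus in 0, against 0.566%. GABPA, NRF1, YY1 and ESRRA are known regulators of genes for respiratory chain subunits. These matches describe the sequence and are no evidence of binding in these samples.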

How the data were processed

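Polyadenylated RNA was sequenced in 11 libraries, each from its own mouse, as paired reads of 43 bases on a NextSeq 500 after NEBNext Ultra II stranded preparation, per the labels' protocols. Per the submitters' processing notes, bcl2fastq 2.20, Bowtie, STAR and mm10 were used; how reads were counted, and with what strand setting, is not stated there. The authors deposited raw counts per gene symbol, in 1 table for each material, and no normalised values were used. Genotypes were compared within each material with edgeR 4.0.16 (R 4.3.3): TMM scaling, filterByExpr, robust quasi-likelihood tests, 2-sided, and Benjamini-Hochberg adjustment over all genes tested at 0.05. The joint fit of 11 libraries had material, genotype and their interaction. CPM are TMM-scaled, and levels per kb use the shortest APPRIS principal transcript of GENCODE on GRCm38. Deviations used log2(CPM + 0.5). Standard errors (SE) of log2 fold changes are those implied by the test: the absolute log2 fold change over the square root of its F statistic. DESeq2 1.42.0, limma 3.58.1, RLE scaling, no filter, sex, day 14 alone and leaving out each library were alternatives. The fit was also run on simulated data with changes planted gene by gene. These were larger than any tested member's difference between genotypes, so the simulation cannot show whether changes as small as the members' would be found. P-values measure the spread between these mice.

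The members and lists were chosen with earlier results of these data known. Members were named if called, untested, in an isoform set, or among the 2 with the smallest p or the 2 with the highest level per kb of their complex and material. Ndufs1, Ndufc2, Atp5s, Ndufv1 and Sdhb in progenitors, and the members sharing most sequence, were named after their values were seen. Deposited sample tables gave the sex of the mice. Values of 1 member are not reported here.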

Additional observations from a re-analysis of the deposited data

How the results depend on the processing

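Under every alternative run, 0 members were called between genotypes in either material and 0 in the interaction. The number of genes called in progenitors was 749 with DESeq2 and 262 with the day 14 libraries alone, against 454 with the reported fit, and in muscle 263 with DESeq2, 139 with no filter and 54 with no scaling factors, against 92. Leaving out each library in turn gave 262 to 483 genes in progenitors and 0 to 239 in muscle, where 0 remained without 71B5 (1023 genes had an unadjusted p under 0.05 in edgeR), 25 without 71B4, 239 without 73A5 and 207 without 73A7. Leaving out a WT muscle leaves 1 library in that group, which is assumed to vary like the WT/flox ones. Members with small log2 fold changes changed sign. With the day 14 libraries alone the progenitor values were 0.093 for Cox4i1, 0.0029 for Cox6b1, 0.063 for Cox7a1, 0.0049 for Cox7a2, 0.018 for Cox7a2l, 0.070 for Cox8b and 0.0025 for Ndufb9. Cox7a2l in progenitors was 0.063 with limma voom and 0.0036 with sex as a covariate. With no scaling factors the muscle values were 0.033 for Atp5a1, 0.039 for Cox7a2, 0.084 for Cox7b, 0.011 for Cox8b, 0.0079 for Ndufb9 and 0.052 for Uqcrq. Leaving out 1 library at a time, the progenitor log2 fold changes ran from -0.27 to 0.10 for Atp5g1, -0.23 to 0.092 for Atp5g3, -0.37 to 0.20 for Cox4i1, -0.18 to 0.18 for Cox6b1, -0.065 to 0.40 for Cox6c, -0.37 to 0.063 for Cox7a1, -0.28 to 0.075 for Cox7a2, -0.27 to 0.44 for Cox7a2l, -0.011 to 0.29 for Cox7b, -0.44 to 0.11 for Cox8a, -1.67 to 0.30 for Cox8b, -0.19 to 0.21 for Ndufa4, -0.34 to 0.030 for Ndufa9, -0.41 to 0.13 for Ndufb9, -0.37 to 0.050 for Sdhc, -0.21 to 0.31 for Uqcr10, -0.51 to 0.011 for Uqcr11, -0.33 to 0.055 for Uqcrb and -0.13 to 0.48 for Uqcrh. In muscle they ran from -0.16 to 0.053 for Atp5a1, -0.21 to 0.36 for Atp5g2, -0.50 to 0.045 for Cox4i1, -0.64 to 0.084 for Cox4i2, -0.61 to 0.26 for Cox6a1, -0.48 to 0.13 for Cox6a2, -0.54 to 0.018 for Cox6b1, -0.26 to 0.13 for Cox7a2, -0.13 to 0.17 for Cox7a2l, -0.44 to 0.12 for Cox8a, -0.21 to 0.0016 for Cox8b, -0.31 to 0.14 for Ndufb9, -0.50 to 0.077 for Uqcrh and -0.20 to 0.085 for Uqcrq. Between WT muscle and WT progenitors, 0 to 1 members were lower when 1 library was left out, Cox6a1 ran from -1.31 to -0.50 and Cox7a2l from 0.59 to 1.38. The causes were not tested. Whether the deposited replicate numbers pair the libraries was not settled. Deviations of same-numbered libraries correlated at 0.0116, 0.283 and -0.168 in progenitors and at -0.0342 and -0.529 in muscle. Those of progenitor libraries with different numbers correlated at -0.319 to 0.319, a range that holds the values of the same-numbered ones. The deviations of the 2 WT muscles mirror each other, so the muscle values cannot show whether libraries were paired. A replicate block by these numbers gave 491 genes in progenitors and 178 in muscle, with 0 members called, a value of 0.064 for Cox7a2l in progenitors and of -0.083 for Atp5g2 and -0.085 for Cox7a2l in muscle. The replicate block, the fits without scaling factors and the joint fits without 1 library were chosen after seeing the data.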

Other observations

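Ndufs5, a subunit of complex I on chromosome 4 (GRCm38, 123712710 to 123718202, minus strand), had 1 count in the WT/flox muscle 71B4 and 0 counts in the other 10 libraries. BC002163, a gene that shares 43.5% of the 43-base words of Ndufs5, had 2196 to 2711 counts in WT/flox muscle and 2005 and 2551 in WT muscle, and 110 to 200 counts in WT/flox progenitors and 129 to 248 in WT progenitors. Its level was 124 ± 18.9 CPM in WT/flox muscle and 142 ± 30.7 CPM in WT muscle (SD, n = 3 and 2; log2 fold change -0.19, adjusted p = 0.842 with edgeR). In progenitors it was 10.6 ± 3.62 CPM in WT/flox and 11 ± 3.16 CPM in WT (SD, n = 3 each; log2 fold change -0.064, adjusted p = 0.996 with edgeR). Whether reads of Ndufs5 were counted under BC002163 was not tested.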
